A study of Mus musculus with 8 samples.

Results

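Integrins and the other surface proteins with which leukocytes hold on to cells and matrix were followed through 33 genes: 16 integrin alpha subunits, 8 beta subunits and 9 genes for other adhesion receptors, junction proteins and activators of integrins. They were listed by name, with no threshold on a measured value, but with earlier results of these data known. The shares called among them are therefore not those of a list chosen blind. Of these, 32 were measured among 18194 genes in all, each by the probe set of the gene with the highest mean over 8 Affymetrix arrays. Itgad, the alpha D subunit, has no probe set of its own in the platform annotation used here and was not analysed.

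The arrays profiled mouse peritoneal macrophages, drawn to the peritoneum by 3% thioglycolate, harvested after 4 days and kept by adherence in medium with 10% serum. All donors were male C57BL6/J mice with both alleles of the mineralocorticoid receptor gene floxed (MR fl / fl). Control mice carried only the floxed alleles, and knockout mice also carried LysM cre, a recombinase driven by the lysozyme M locus, which is active in macrophages and neutrophils. Cells of each genotype stood for 24 h without treatment or with 1 µM corticosterone, the glucocorticoid that mouse adrenals secrete, in 4 groups of 2 arrays each. The labels call the 2 arrays of a group biological replicates. Each sample was a pool of experiments done 3 times, and no source used here says how many mice entered a pool. The spread that enters each p-value is thus that among these pools, and despite the labels it may be only technical. Values are log2 levels from robust multi-array averaging (RMA), which are relative within an array and give no detection call, so levels are compared between arrays for one gene and not between genes. In such bulk samples fewer cells of a type and less RNA per cell cannot be told apart.

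Integrins are dimers of an alpha and a beta chain. The beta 2 chain pairs with alpha L, alpha M, alpha X and alpha D to form the leukocyte integrins LFA-1, Mac-1, CD11c/CD18 and CD11d/CD18, which bind ICAM proteins, fibrinogen and complement fragment iC3b. On resting cells integrins are folded and bind poorly, and the adaptors talin and kindlin open them by binding the beta tail. Macrophages use integrins to leave the blood, to spread on matrix and to engulf opsonised particles.

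Control untreated replicate 2 stood apart from the other 7 arrays. The gap between the 3′ and 5′ probe sets of Actb, a gauge of broken RNA, came to 2.18 log2 units on it and to 0.415 to 0.62 elsewhere. It correlated with the others at a median of 0.916, against 0.995 to 0.996 for the rest. The targeted gene Nr3c2 read 6.39 and 8.46 in untreated control cells and 6.39 and 6.13 with hormone. In knockout cells Nr3c2 read 5.54 and 5.82 untreated and 5.11 and 5.47 with hormone, all below the lowest control reading. Whether the probe set falls within the deleted exons is not known here, so this only partly checks the labels. The macrophage markers averaged 12.61 to 12.74 on the 7 arrays and 12.02 on control untreated replicate 2. Comparisons therefore come from a limma fit of 7 arrays, in which untreated control cells are represented by replicate 1 alone, and values with all 8 arrays are given as well. A gene is called where its adjusted p (Benjamini-Hochberg over all genes) is under 0.05.

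The adhesion genes themselves show how far that array lies from its replicate. On it 17 of the 32 read below the range of the other 7 arrays, 6 above and 9 within, and 7 differed from replicate 1 by over 1 log2 unit. Itga1, the collagen-binding alpha 1 subunit, read 10.14 there and 5.55 to 6.27 elsewhere. Vcam1, which endothelial and stromal cells display for alpha 4 integrins, read 9.72 there and 5.59 to 6.76 elsewhere. Itga8, a subunit of mesenchymal cells, read 6.04 against 2.46 to 3.66, and Pecam1, an adhesion protein of endothelial cells and leukocytes, read 5.42 against 3.73 to 4.51. These 4 genes were high on that array, and some leukocyte genes were low. Itgam read 7.42 against 8.49 to 9.08 elsewhere, and Fermt3 read 10.53 against 11.90 to 12.15. Itgb2 (13.14) and Itgax (12.87) lay within the range of the other 7 arrays. The mean of the 12 mesothelial and fibroblast markers was also high there, at 8.49 against 6.54 to 6.93. That of the 9 endothelial markers was 6.99 against 4.57 to 4.93. The mesothelial markers Msln, Upk3b and Krt19 lay within the range of the other 7 arrays, as did the endothelial marker Emcn. The part of those cells and of RNA quality in these values was not tested.

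**Figure D1:**
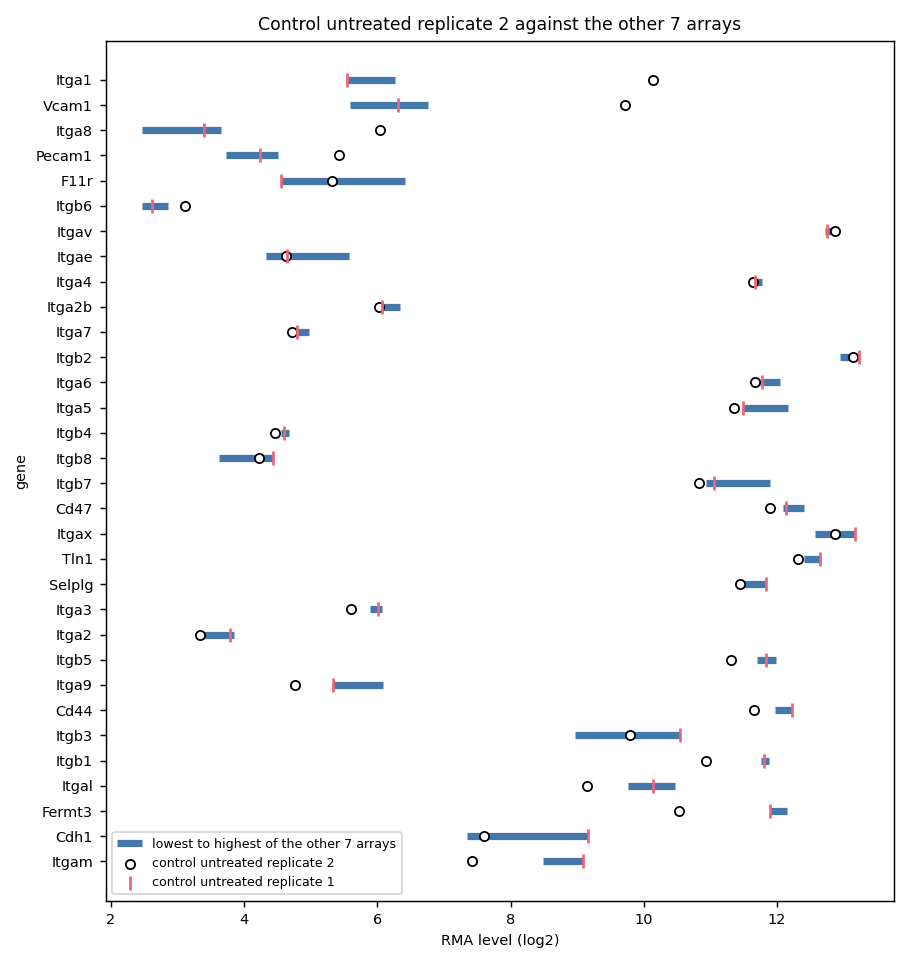
RMA level (log2, horizontal axis) of the 32 adhesion genes on control untreated replicate 2 (open circles) and its replicate 1 (red ticks), with bars from the lowest to the highest of the other 7 arrays. Genes are ordered by replicate 2 minus replicate 1. Itga1, Vcam1, Itga8 and Pecam1 lie far to the right of their bars, and Itgam, Fermt3 and Itgal to the left.

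Corticosterone changed adhesion genes in both directions in the fit of 7 arrays. In knockout cells, where both groups have 2 arrays and the array that stands apart takes no part in the difference, 14 of 32 members were called, 4 higher and 10 lower. That is 43.8% of the members, against 13.7% of all genes (5.75% higher and 7.96% lower). Of the 32 members 17 read above 8 on all 7 arrays, and no share over genes of like level was taken in any comparison. In control cells 16 of 32 were called, 6 higher and 10 lower, against 10.8% of all genes (4.84% higher and 5.95% lower). All 14 members called in knockout cells were called in the same direction in control cells, and 2 more, Itga9 and Fermt3, were called only there. The 2 counts rest on separate arrays but on 1 shared estimate of the spread. The median change over the members was 0.04 log2 units in knockout and -0.02 in control cells, beside -0.02 and -0.0048 over all genes. Fitted on the 4 knockout arrays alone, limma again called 14 members, against 10.6% of all genes.

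The common chain of the beta 2 leukocyte integrins and its 3 measured partners fell with the hormone in both genotypes in the fit of 7 arrays; with all 8, the control changes of Itgam and Itgal turned upwards. Itgam, the alpha M chain of Mac-1 or complement receptor 3, read 9.08 in untreated control cells (7.42 on the array left out) and 8.70 and 8.71 with hormone. In knockout cells it read 9.05 and 8.98 untreated and 8.50 and 8.49 with hormone. Treated and untreated arrays did not overlap in either genotype once that array was left out, and Itgam fell by 0.52 log2 units in knockout (SE 0.06, limma adjusted p = 0.00041) and by 0.38 in control cells (SE 0.08, adjusted p = 0.0115; 0.45 and adjusted p = 0.592 with all 8 arrays). In control cells only a single untreated array was then left, so the lack of overlap there shows little. Itgax, the alpha X chain, also called CD11c, read 13.16 in untreated control cells (12.87 on the array left out) and 12.71 and 12.73 with hormone, and in knockout cells 13.02 on both untreated arrays and 12.58 on both treated arrays. Itgax fell by 0.44 in knockout (SE 0.02, adjusted p = 2.3e-06) and by 0.45 in control cells (SE 0.03, adjusted p = 1.12e-05). Its replicates lay closer together than the hormone moved it. Itgal, the alpha L chain of LFA-1, read 10.13 in untreated control cells (9.15 on the array left out), 9.77 and 9.80 with hormone, 10.40 and 10.46 in untreated knockout cells and 10.01 and 10.03 with hormone. It fell by 0.41 in knockout (SE 0.05, adjusted p = 0.00025) and by 0.35 in control cells (SE 0.06, adjusted p = 0.00297; 0.14 and adjusted p = 0.789 with all 8 arrays). Itgb2, the chain that all 3 share, read 13.22 in untreated control cells (13.14 on the array left out), 13.0015 and 12.98 with hormone, 13.17 and 13.14 in untreated knockout cells and 12.98 and 12.94 with hormone. Its fall was smaller than that of any of the 3 alpha chains, 0.19 in knockout (SE 0.02, adjusted p = 0.00073) and 0.23 in control cells (SE 0.03, adjusted p = 0.00094); no test was made of the difference between genes.

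Itgb7 rose most among the members that were called. This chain pairs with alpha 4 to bind MAdCAM-1 in gut vessels and with alpha E to bind E-cadherin. It read 11.05 in untreated control cells (10.83 on the array left out), 11.88 and 11.90 with hormone, 10.94 and 10.99 in untreated knockout cells and 11.79 and 11.80 with hormone. The rise was 1.78-fold in knockout cells (0.83 log2 units, SE 0.03, adjusted p = 3.24e-07) and 1.79-fold in control cells (0.84, SE 0.04, adjusted p = 1.81e-06). Its partners did not pass. Itga4, the alpha 4 chain, read 11.67 to 11.78 on the 7 arrays, with a change of 0.04 in knockout (SE 0.04, adjusted p = 0.636) and 0.02 in control cells (SE 0.05, adjusted p = 0.856). Itgae, the alpha E chain of intraepithelial T cells and some dendritic cells, read 4.33 to 5.58, with a change of -0.43 in knockout (SE 0.34) and 0.04 in control cells (SE 0.42).

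The promoters of 4 genes are shown because the results turn on them: Itgam and Itgax, neighbouring genes that fell with hormone, Itgb7, which rose, and F11r, which differed between genotypes. Each line gives the 250 bases before a transcript start of the gene in RefSeq on GRCm38.p6, 5′ to 3′ on its strand. For Itgb7 and Itgax the annotated gene begins farther upstream than that start, so the Itgb7 window lies inside the gene and the Itgax window reaches a short way into it. Capitals mark any of 3 short motifs, searched on both strands: AGAACA, the half-site of the glucocorticoid receptor, GAGGAA, the core bound by the myeloid factor PU.1, and TGANTCA, the AP-1 site.
Itgam, chr7:128062390-128062639, plus strand: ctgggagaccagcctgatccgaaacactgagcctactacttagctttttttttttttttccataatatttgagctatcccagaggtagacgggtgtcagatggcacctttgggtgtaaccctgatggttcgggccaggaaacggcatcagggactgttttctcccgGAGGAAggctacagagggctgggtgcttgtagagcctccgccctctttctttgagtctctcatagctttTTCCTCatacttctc
Itgax, chr7:128129300-128129549, plus strand: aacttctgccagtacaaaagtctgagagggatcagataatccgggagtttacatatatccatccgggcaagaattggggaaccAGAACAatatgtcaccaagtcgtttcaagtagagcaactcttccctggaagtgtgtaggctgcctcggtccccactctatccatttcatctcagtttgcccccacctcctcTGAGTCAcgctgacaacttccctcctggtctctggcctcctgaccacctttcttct
Itgb7, chr15:102231936-102232185, minus strand: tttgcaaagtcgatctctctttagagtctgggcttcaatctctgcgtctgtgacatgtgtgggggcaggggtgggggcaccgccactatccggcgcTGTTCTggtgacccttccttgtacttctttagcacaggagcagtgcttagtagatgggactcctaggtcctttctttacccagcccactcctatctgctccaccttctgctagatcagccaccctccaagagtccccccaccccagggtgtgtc
F11r, chr1:171437311-171437560, plus strand: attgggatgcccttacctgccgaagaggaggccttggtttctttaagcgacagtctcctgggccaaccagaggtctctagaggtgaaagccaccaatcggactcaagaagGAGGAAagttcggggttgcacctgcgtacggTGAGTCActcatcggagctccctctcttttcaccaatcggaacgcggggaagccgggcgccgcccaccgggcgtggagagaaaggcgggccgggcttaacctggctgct
The window of Itgam holds GAGGAA 2 times, that of Itgax holds AGAACA and TGANTCA 1 time each, that of Itgb7 holds AGAACA 1 time, on the opposite strand, and that of F11r holds GAGGAA and TGANTCA 1 time each. A window was given for 21 of the 33 members. AGAACA was in the windows of 5 of them (Fermt3, Itga2, Itgax, Itgb1 and Itgb7), against 16.1% of 32851 windows of this length. GAGGAA was in those of 10, against 23.3% of windows, and TGANTCA in those of 2, against 6.75%. The full palindromic response element, which is AGAACA, any 3 bases and its reverse complement TGTTCT, was in 3 of all windows and in 0 windows of members. A match describes letters only.

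The beta 3 chain moved the other way. Itgb3, which pairs with alpha V to bind vitronectin and fibronectin and with alpha IIb on platelets, read 10.54 in untreated control cells (9.79 on the array left out), 9.53 and 9.65 with hormone, 10.03 and 9.95 in untreated knockout cells and 9.03 and 8.97 with hormone. It fell 1.99-fold in knockout cells (log2 change -0.99, SE 0.06, adjusted p = 5.83e-06) and 1.93-fold in control cells (-0.95, SE 0.07, adjusted p = 4.38e-05). The second probe set of Itgb3, which read 4.89 to 5.52 on the 7 arrays, gave -0.36 and -0.42. Itgav, its alpha V partner, read 12.72 to 12.83 and did not pass, at 0.04 in knockout and 0.02 in control cells. The other platelet partner, Itga2b, read 6.04 to 6.33 and did not pass either. Among 7 measured platelet markers 1, Pf4, was called higher and 0 lower with hormone in knockout cells, beside 13.7% of all genes called. Pf4 rose by 0.60 there and by 0.61 in control cells. The markers Gp1bb, Gp5 and Gp6 read between 2.63 and 3.23 on the 7 arrays. The part of platelets in the fall of Itgb3 was not tested.

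The alpha 5 and alpha 6 chains rose, while their partner beta 1 did not pass. Itga5, the alpha 5 chain of the main fibronectin receptor, read 11.48 in untreated control cells (11.35 on the array left out), 12.08 and 12.10 with hormone, 11.62 and 11.76 in untreated knockout cells and 12.16 and 12.12 with hormone. It rose by 0.45 in knockout (SE 0.04, adjusted p = 0.00011) and by 0.61 in control cells (SE 0.05, adjusted p = 8.4e-05), and all 3 other probe sets of Itga5 read higher with hormone, by 0.56 to 0.83. Itga6, the laminin-binding alpha 6 chain, read 11.78 in untreated control cells (11.66 on the array left out), 12.04 and 11.98 with hormone, 11.74 and 11.82 in untreated knockout cells and 12.03 and 12.02 with hormone, a rise of 0.25 in knockout (SE 0.04, adjusted p = 0.00144) and 0.23 in control cells (SE 0.04, adjusted p = 0.0092). Itgb1, the beta 1 chain that pairs with alpha 4, alpha 5, alpha 6, alpha 8 and alpha 9, read 11.76 to 11.88 on the 7 arrays (10.93 on the array left out), with 0.08 in knockout (SE 0.03, adjusted p = 0.136) and 0.07 in control cells (SE 0.04, adjusted p = 0.364).

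A pair of alpha chains with low readings were also called. Itga9, which binds tenascin and osteopontin, read 5.33 in untreated control cells (4.76 on the array left out), 6.09 and 5.95 with hormone, 5.52 and 5.48 in untreated knockout cells and 5.96 and 5.85 with hormone. It rose by 0.68 in control cells (SE 0.16, adjusted p = 0.0277) and gave 0.40 in knockout cells (SE 0.13, adjusted p = 0.0848). Itga8 read 3.40 in untreated control cells (6.04 on the array left out), 2.46 and 2.81 with hormone, 3.50 and 3.66 in untreated knockout cells and 3.04 and 2.62 with hormone. It fell by 0.75 in knockout (SE 0.17, adjusted p = 0.0173) and by 0.77 in control cells (SE 0.21, adjusted p = 0.0474). RMA compresses such low values, and for Itga8 the readings lay under the array medians of 5.55 to 5.58. The second probe set of Itga8 gave -0.15 in knockout and -0.51 in control cells. The other probe sets of Itga9 gave 0.64 and 0.45 in knockout and 1.28 and 0.34 in control cells. The first of them was brighter on the 7 arrays (mean 5.79 against 5.74).

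Among the other receptors Selplg, Cd44 and Cdh1 fell and Cd47 rose. Selplg, the P-selectin ligand PSGL-1 on which leukocytes roll, read 11.84 in untreated control cells (11.45 on the array left out), 11.56 and 11.48 with hormone, 11.82 and 11.77 in untreated knockout cells and 11.59 and 11.58 with hormone. It fell by 0.21 in knockout (SE 0.04, adjusted p = 0.0042) and by 0.32 in control cells (SE 0.04, adjusted p = 0.00136). Cd44, the main hyaluronan receptor, read 12.23 in untreated control cells (11.65 on the array left out), 11.97 and 12.03 with hormone, 12.11 and 12.13 in untreated knockout cells and 11.97 on both knockout arrays with hormone. Its falls were 0.15 in knockout (SE 0.03, adjusted p = 0.0095) and 0.23 in control cells (SE 0.04, adjusted p = 0.0037; 0.0633 and adjusted p = 0.841 with all 8 arrays). Another probe set of Cd44, brighter on the 7 arrays (mean 12.12 against 12.06) but not over all 8, gave -0.06 and -0.11. On averaging the probe sets of Cd44 both calls were lost (-0.10 in each, limma adjusted p = 0.259 in knockout cells). Cd47, the signal against engulfment that also associates with beta 3 integrin, read 12.13 in untreated control cells (11.90 on the array left out), 12.38 and 12.37 with hormone, 12.15 and 12.08 in untreated knockout cells and 12.37 and 12.40 with hormone, a rise of 0.27 in knockout (SE 0.03, adjusted p = 0.00036) and 0.24 in control cells (SE 0.04, adjusted p = 0.0032). Cdh1, E-cadherin, which alternatively activated macrophages can carry, read 9.16 in untreated control cells (7.61 on the array left out), 8.32 and 8.25 with hormone, 8.0 and 7.96 in untreated knockout cells and 7.42 and 7.35 with hormone. Cdh1 fell by 0.59 in knockout (SE 0.08, adjusted p = 0.0008) and by 0.88 in control cells (SE 0.10, adjusted p = 0.00035).

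The activators of integrins were called in opposite directions in control cells. Tln1, talin, which links beta tails to actin, read 12.65 in untreated control cells (12.32 on the array left out), 12.46 and 12.44 with hormone, 12.55 and 12.59 in untreated knockout cells and 12.45 and 12.40 with hormone. It fell by 0.15 in knockout (SE 0.03, adjusted p = 0.0084) and by 0.20 in control cells (SE 0.04, adjusted p = 0.0064), and its other probe sets gave -0.43 and -0.34 in knockout cells. Fermt3, kindlin-3, whose loss in people causes a leukocyte adhesion deficiency, read 11.90 in untreated control cells (10.53 on the array left out), 12.10 and 12.12 with hormone, 12.02 and 11.92 in untreated knockout cells and 12.04 and 12.15 with hormone. It rose by 0.21 in control cells (SE 0.06, adjusted p = 0.0392) and gave 0.13 in knockout cells (SE 0.05, adjusted p = 0.108). The other 3 probe sets of Fermt3 gave -0.0083 to 0.20 in control cells.

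**Figure D2:**
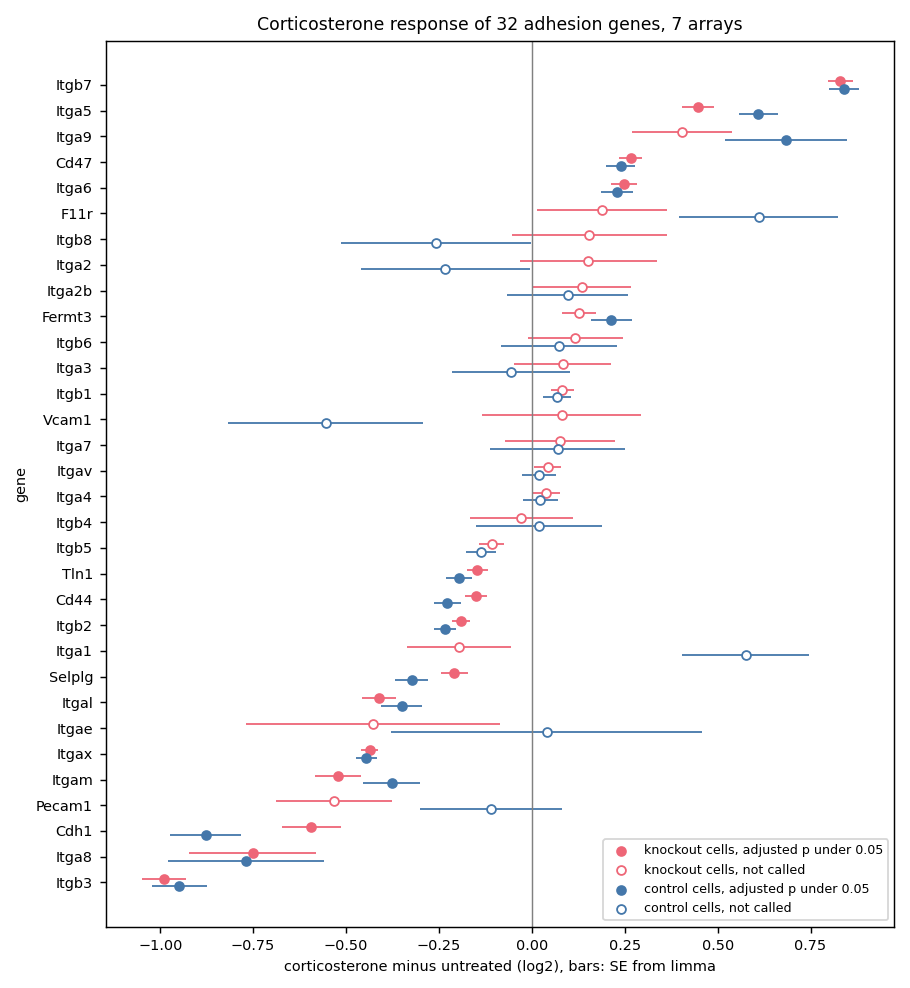
Corticosterone minus untreated (log2, horizontal axis) for the 32 adhesion genes in knockout (red) and control (blue) cells, from the limma fit of 7 arrays; bars are SE and filled points have an adjusted p under 0.05. Itgb7 has the highest filled points, at 0.83 and 0.84, and Itgb3 the lowest, at -0.99 and -0.95.

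With all 8 arrays the changes in knockout cells are the same numbers, but the larger shared spread left 0 of 32 members called in limma (0.148% of all genes were), with adjusted p from 0.0727 for Itgb7 to 1, and 7 members with an unadjusted p under 0.05 (4.59% of all genes had one). In control cells 1 member was called, Itgb7 at 0.95 (adjusted p = 0.0458), against 0.17% of all genes. The sign of the change in control cells turned with all 8 arrays for Itgam (0.45), Itgal (0.14) and Cd44 (0.0633). For the other called members the 8-array changes in control cells were -0.30 for Itgax, -0.19 for Itgb2, -0.57 for Itgb3, 0.68 for Itga5, 0.29 for Itga6, -2.09 for Itga8, 0.97 for Itga9, -0.13 for Selplg, -0.10 for Cdh1, 0.36 for Cd47, -0.03 for Tln1 and 0.90 for Fermt3. In knockout cells the calls of Itgb7, Itgb3, Itgax, Itgam, Itgal, Itga5, Cd47 and Cdh1 held under every other setting tried. Those of Cd44, Itga6, Itga8, Itgb2, Selplg and Tln1 were lost without the variance trend of the model (adjusted p 0.0703 to 0.173), those of Cd44, Itgb2, Selplg and Tln1 with each array centred on its median (0.157 to 0.414), and those of Cd44, Itga8 and Tln1 also without knockout corticosterone replicate 2 (adjusted p = 0.0677, 0.135 and 0.105), of Cd44 without replicate 1 of that group (0.0771) and of Itga8 without knockout untreated replicate 2 (0.0583). In control cells Itgb3, Itgax, Itga5 and Cdh1 lost their call in both fits of 8 arrays and in no other, and Itgb7 only in that with array weights (adjusted p = 0.2096). Of the other 11 calls there, those of Cd44, Cd47, Fermt3, Itga6, Itga8, Itgb2, Selplg and Tln1 were lost without the variance trend (adjusted p 0.0702 to 0.248). Averaging probe sets lost those of Itgal (0.0551), Cd47 (0.0683), Fermt3 (0.0913) and Cd44 (0.409). Centring each array lost those of Cd44, Cd47, Fermt3, Itgb2 and Tln1 (0.0523 to 0.152), and the replicate block those of Fermt3 and Itga8 (0.101 in each). Without control corticosterone replicate 1 the adjusted p was 0.077 for Itgam, 0.242 for Itga8, 0.147 for Itga9, 0.144 for Fermt3 and 0.0727 for Itga6. Without replicate 2 of that group it was 0.0769 for Itgam, 0.0694 for Itga8, 0.0821 for Itga9, 0.189 for Fermt3 and 0.0557 for Tln1. In knockout cells Itga9 and Fermt3 passed on averaging their probe sets (adjusted p = 0.0228 and 0.0079).

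Markers of lymphocytes, which carry Itgal, Itgb7, Itga4 and Selplg too, fell in the same contrasts. In knockout cells 7 of 10 measured T and NK cell markers were called lower and 1 higher, and the mean of that list lay at 6.44 and 6.49 untreated and 5.35 and 5.37 with hormone. Of 8 B cell markers 6 were called lower, with list means of 7.19 and 7.30 untreated and 6.20 and 6.32 with hormone. Of 9 dendritic cell markers, a cell type that carries Itgax, 3 were called lower and 1 higher, with means of 5.99 and 6.01 against 5.52 and 5.57. In control cells 6 of 10, 6 of 8 and 3 of 9 were called lower. Neutrophil markers (9 measured) gave 1 higher and 2 lower and eosinophil and mast cell markers (9 measured) 2 higher and 2 lower in knockout cells. The list of 8 macrophage markers had means of 12.65 and 12.67 untreated and 12.73 and 12.74 with hormone in knockout cells. Of these markers 3 were called higher and 1 lower there, and 13.7% of all genes were called in that comparison. The part of lymphocytes and dendritic cells in the falls of Itgal, Itgax and Selplg, or in the rise of Itgb7, was not tested.

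**Figure D3:**
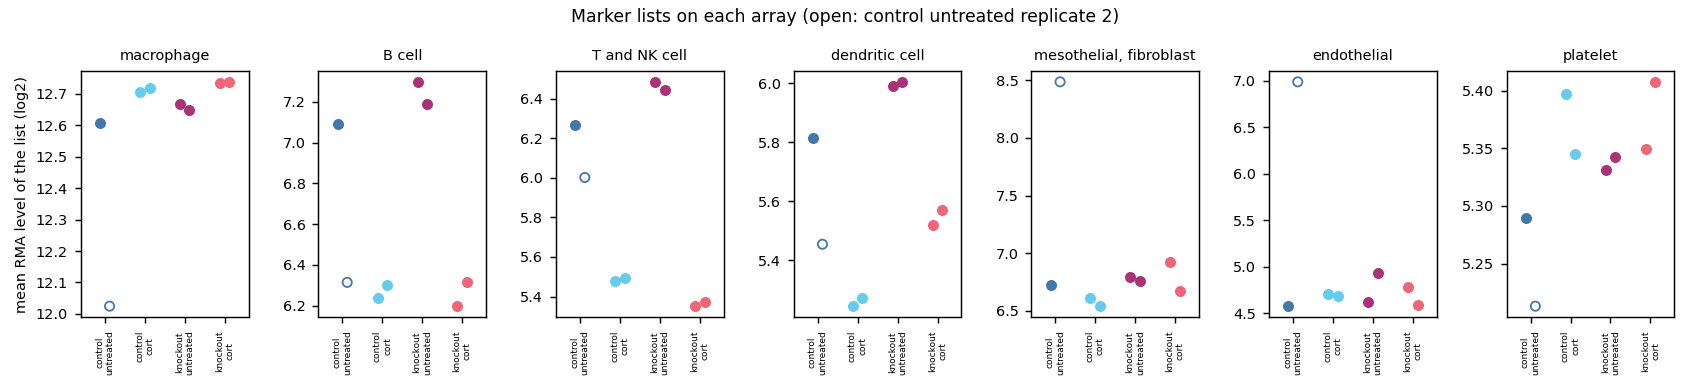
Mean RMA level (log2, vertical axes, which differ and do not start at 0) of 7 lists of marker genes on each array, by group; cort is corticosterone and the open circle is control untreated replicate 2. B, T and NK cell lists are lower on every treated array than on the untreated arrays of the 7, while the macrophage list is slightly higher.

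**Figure D4:**
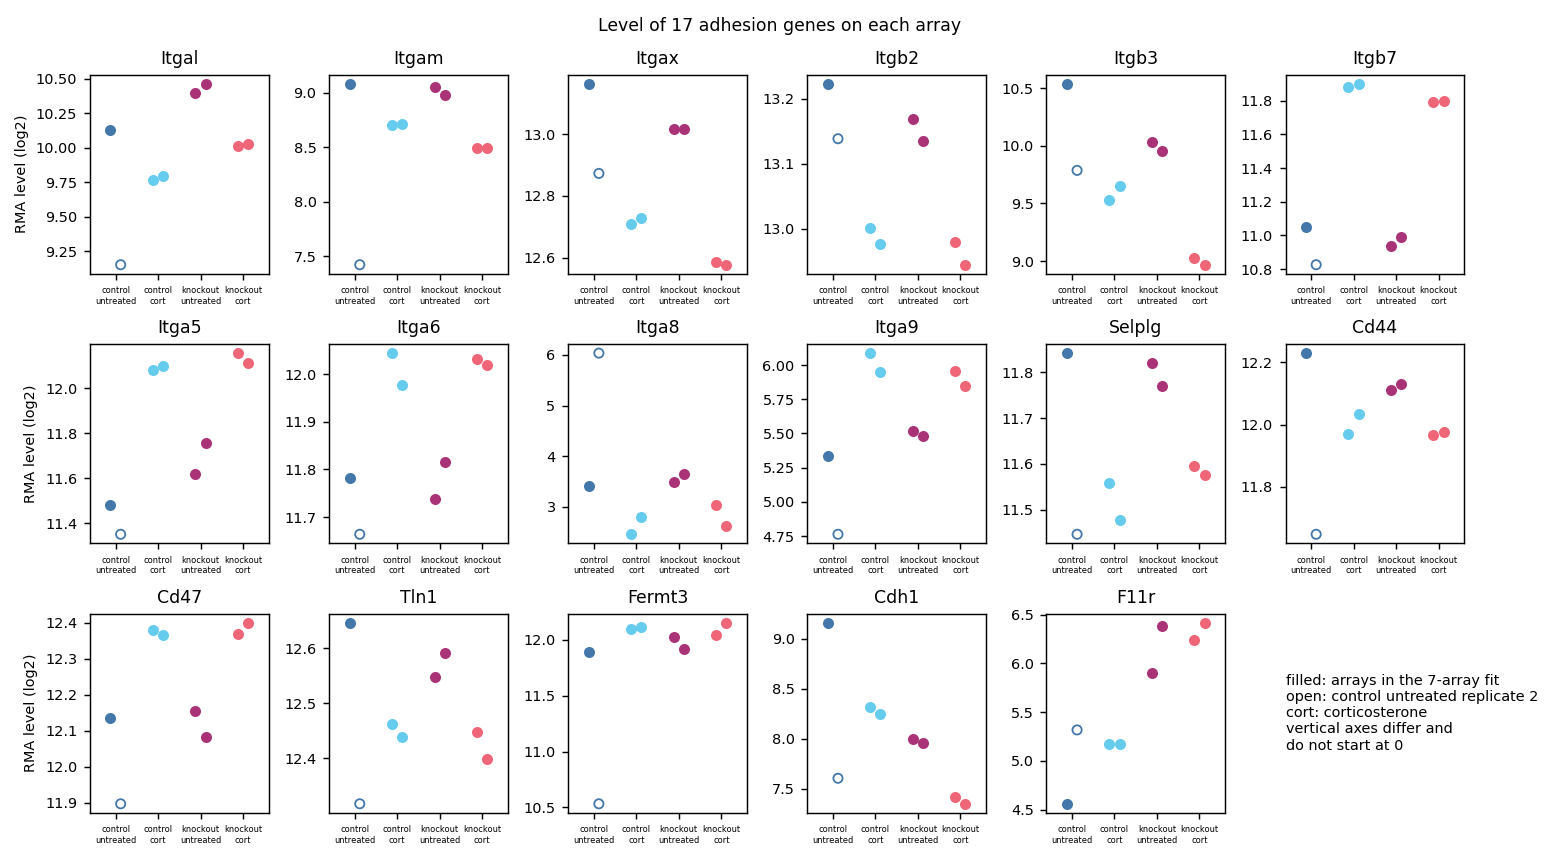
RMA level (log2, vertical axes, which differ and do not start at 0) of the 17 adhesion genes called in at least 1 comparison, on each array by group; the open circle is control untreated replicate 2. Among filled points the 4 beta 2 family genes, Itgal, Itgam, Itgax and Itgb2, are lower and Itgb7 is higher with hormone. Cdh1 and F11r separate the genotypes among filled points, while the open circle of Cdh1 lies within its knockout range.

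Deletion of the mineralocorticoid receptor gene went with differences in 5 adhesion genes, the same 5 with and without hormone: F11r and Itgal were higher in knockout cells, and Cdh1, Itgb3 and Itgax lower. That is 15.6% of the members in each comparison, against 1.63% of all genes with corticosterone (1.29% higher, 0.335% lower) and 1.99% without (1.43% higher, 0.555% lower). The comparison with hormone has 2 arrays on each side and does not use control untreated replicate 2. The one without hormone rests on a single control array. Both rest on the same shared estimate of the spread, so a call in both is not a fully separate repeat. The median difference over the members was -0.01 in both, beside 0.0001 and 0.01 over all genes.

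F11r, the junctional adhesion molecule JAM-A, which binds LFA-1, had the largest difference. It read 4.56 in untreated control cells (5.32 on the array left out), 5.17 on both control arrays with hormone, 5.90 and 6.38 in untreated knockout cells and 6.24 and 6.42 with hormone. All 4 knockout arrays lay above all control arrays. The level was 2.23-fold higher in knockout cells with hormone (1.16 log2 units, SE 0.17, limma adjusted p = 0.0105) and 2.99-fold higher without (1.58, SE 0.21, adjusted p = 0.0056; 1.20 and adjusted p = 0.486 with all 8 arrays). Its second probe set, which read 4.20 to 4.67, gave 0.03 and 0.14, and with the mean of both probe sets neither call held (0.59, adjusted p = 0.153, and 0.86, adjusted p = 0.0734). Without the variance trend both calls were lost (adjusted p = 0.114 and 0.0883). The call with hormone was also lost without any 1 of the 4 arrays compared (adjusted p 0.0539 to 0.156).

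Cdh1 was lower in knockout cells, by 0.90 with hormone (1.86-fold, SE 0.08, adjusted p = 0.00035) and by 1.18 without (2.27-fold, SE 0.10, adjusted p = 0.00024). Its 4 knockout arrays, at 7.35 to 8.0, lay below the 3 control arrays of the fit, at 8.25 to 9.16, while the array left out read 7.61, and with all 8 arrays the difference without hormone was -0.40 (adjusted p = 0.616). Both calls of Cdh1 held under every setting tried that left that array out. Itgb3 was lower by 0.59 with hormone (SE 0.06, adjusted p = 0.00089) and by 0.55 without (SE 0.07, adjusted p = 0.0050; -0.17 and adjusted p = 0.673 with all 8 arrays). Both calls of Itgb3 were lost on averaging its probe sets (-0.33, adjusted p = 0.282, and -0.34, adjusted p = 0.287) and when no trend was fitted to the variance (adjusted p = 0.0621 and 0.12).

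The differences of the LFA-1 and CD11c chains were small. Itgal was higher by 0.24 with hormone (SE 0.05, adjusted p = 0.0363) and by 0.30 without (SE 0.06, adjusted p = 0.0286; 0.79 and adjusted p = 0.486 with all 8 arrays). Itgax was lower by 0.14 with hormone (SE 0.02, adjusted p = 0.0173) and by 0.15 without (SE 0.03, adjusted p = 0.0317; -0.0012 and adjusted p = 0.994 with all 8 arrays). With hormone both calls were lost without any 1 of the 4 arrays compared (adjusted p 0.112 to 0.335), and without hormone they were lost when any 1 array other than knockout untreated replicate 1 was dropped (adjusted p 0.0501 to 0.0907), the lone untreated control array excepted. Itgb2 and Itgam, of the same family, did not pass, at -0.03 and -0.21 with hormone and -0.07 on both without.

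No marker of platelets, endothelium, mesothelium or fibroblasts, T and NK cells or dendritic cells was called between genotypes with or without hormone, out of 7, 9, 12, 10 and 9 measured. Of all genes 1.63% were called with hormone and little more without, so lists this short cannot show that cell content was alike. Of 8 B cell markers 1 was higher in knockout cells without hormone, and of 8 macrophage markers 1 was higher in each comparison. With all 8 arrays limma called no gene in either genotype comparison, and 1 member had an unadjusted p under 0.05 with hormone (1.26% of all genes had one) and 3 without (4.44%).

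**Figure D5:**
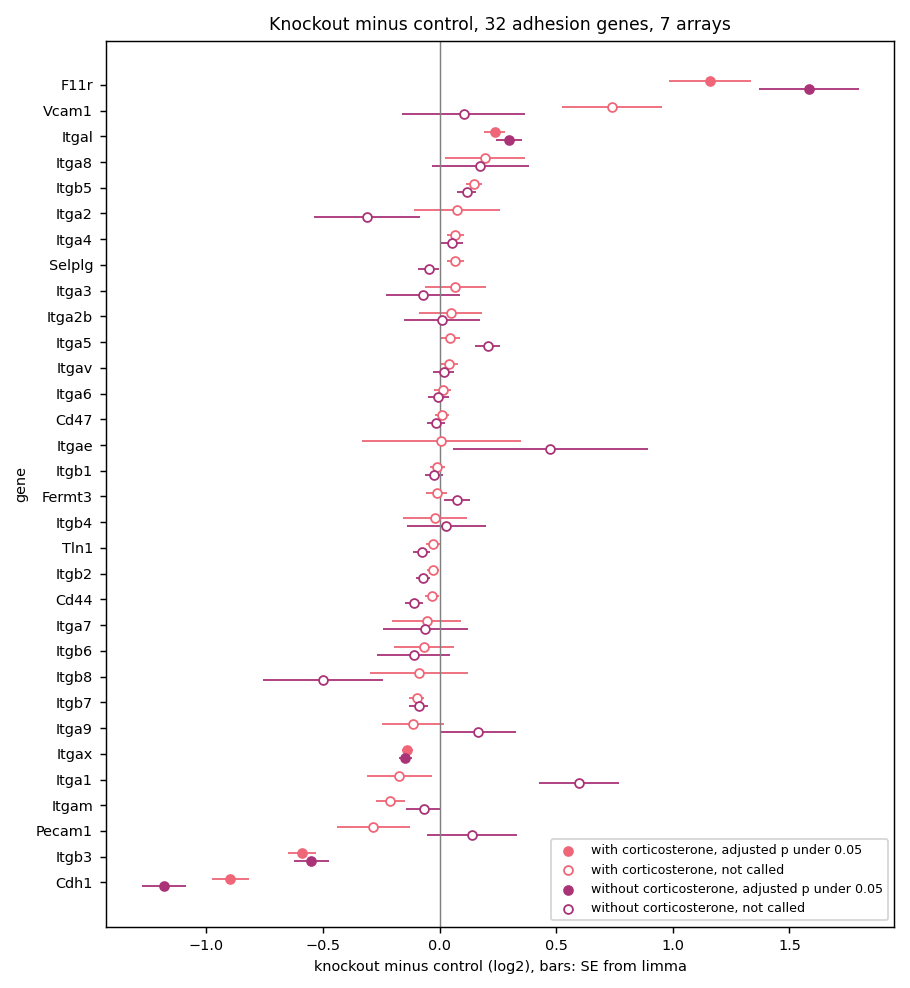
Knockout minus control (log2, horizontal axis) for the 32 adhesion genes with (red) and without (purple) corticosterone, from the limma fit of 7 arrays; bars are SE and filled points have an adjusted p under 0.05. F11r, at 1.16 and 1.58, and Cdh1, at -0.90 and -1.18, lie farthest from 0.

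The hormone response was not shown to differ between genotypes for any member. The interaction was called for 0 of 32 members in limma, against 0.0165% of all genes, and the smallest adjusted p was 0.814. Without adjustment 3 had a p under 0.05, as did 5.85% of all genes. Itga1 gave -0.77 (SE 0.22), from 5.55 in untreated control cells to 6.27 and 5.98 with hormone, and from 6.16 and 6.15 to 5.98 and 5.94 in knockout cells. Cdh1 gave 0.28 (SE 0.12) and Itga5 gave -0.16 (SE 0.07). With all 8 arrays 0 were called and 0 members had an unadjusted p under 0.05, against 1.09% of all genes. The interaction of Itgb7 was -0.01 (SE 0.05), that of Itgb3 -0.04 (SE 0.09) and that of Itgax 0.01 (SE 0.04), each within its error.

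The 15 members called in no comparison include 4 that read above 8 on all 7 arrays, Itga4, Itgav, Itgb1 and Itgb5, and 11 that stayed below 7. Itgb5, another partner of alpha V, read 11.70 to 11.98. Its changes with hormone were -0.11 in knockout (SE 0.03, adjusted p = 0.0702) and -0.14 in control cells (SE 0.04, adjusted p = 0.0719), and all 4 of its probe sets gave -0.18 to -0.09. Among the low genes, the epithelial chains Itgb4 and Itgb6 read 4.56 to 4.68 and 2.47 to 2.86. Vcam1 gave 0.74 between genotypes with hormone (SE 0.21, adjusted p = 0.208), and Pecam1 gave -0.53 with hormone in knockout cells (SE 0.16, adjusted p = 0.0553). The rest, Itga1, Itga2, Itga2b, Itga3, Itga7, Itgae and Itgb8, read between 3.28 and 6.33.

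The proteins that act on the beta tails were read from a second list of 25 adaptors, 23 of them measured. With hormone 3 were called higher and 3 lower in knockout cells, and control cells had 3 higher and 5 lower, beside 13.7% and 10.8% of all genes called. None of the 23 was called with all 8 arrays in either genotype. Parvg, the parvin of blood cells, which joins integrin-linked kinase to actin, fell by 1.01 in knockout (SE 0.08, adjusted p = 2.29e-05) and by 1.10 in control cells (SE 0.09, adjusted p = 7.43e-05; -0.68 with all 8 arrays). Rasgrp2, the exchange factor that switches on Rap1 ahead of talin, fell by 0.43 (SE 0.08, adjusted p = 0.0072) and 0.59 (SE 0.10, adjusted p = 0.0049). In control cells it read 8.32 untreated and 7.72 and 7.74 with hormone, but 6.74 on the array left out, so with all 8 arrays the change there turned to 0.20. Vcl, vinculin, rose by 0.30 (adjusted p = 9.21e-05) and 0.24 (adjusted p = 0.00176), and Fyb, an adaptor of inside-out signalling, by 0.27 on both (adjusted p = 0.00027 and 0.00133). Their control changes with all 8 arrays were 0.063 for Vcl and 0.79 for Fyb. Between genotypes 1 was called, with hormone only: Parva, a parvin of many tissues, read 5.71 and 5.99 in control and 7.11 and 6.56 in knockout cells, a difference of 0.99 (SE 0.20, adjusted p = 0.0443). It read 10.92 on the array left out.

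Of 20 integrin ligands 19 were measured, and with hormone 3 rose and 4 fell in knockout cells, while 3 rose and 3 fell in control cells, beside 13.7% and 10.8% of all genes called. Fn1 alone was called with all 8 arrays, in both genotypes (adjusted p = 0.0394 in knockout and 0.0252 in control cells). Icam1, the ligand of LFA-1 and Mac-1, read 10.06 in untreated control cells and 8.84 and 8.83 with hormone, and fell by 1.29 in knockout (SE 0.08, adjusted p = 8.31e-06) and by 1.23 in control cells (SE 0.10, adjusted p = 6.48e-05). Fibronectin, Fn1, the ligand of alpha 5 beta 1, fell by 0.79 (SE 0.04, adjusted p = 8.27e-07) and 0.97 (SE 0.04, adjusted p = 1.14e-06), and Mfge8, which bridges apoptotic cells to alpha V integrins, by 0.47 and 0.45. With all 8 arrays the control changes were -1.24 for Icam1, -0.90 for Fn1 and -0.15 for Mfge8. Thbs1, thrombospondin-1, a ligand of CD47, rose by 1.44 (SE 0.07, adjusted p = 1.23e-06) and 1.74 (SE 0.08, adjusted p = 1.81e-06; 1.03 with all 8 arrays). Between genotypes 4 ligands were higher and 1, Mfge8, lower in knockout cells in each comparison, beside 1.63% of all genes called with hormone and 1.99% without, and 0 were called with all 8 arrays. Col4a1, a collagen of basement membranes, read 7.94 and 7.92 in control and 9.39 and 9.09 in knockout cells with hormone, a difference of 1.31 (SE 0.11, adjusted p = 0.00026), and it read 11.13 on the control array left out.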

How the data were processed

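The authors deposited 1 log2 level for each probe set on each array, computed by RMA in R 2.7 per the submitters' processing notes; RMA as a rule corrects background, gives all arrays 1 distribution and summarises probes. No count or depth belongs to such values; the number of arrays limits the precision. Of 45101 probe sets, 34958 had 1 gene in the platform annotation, 932 several and 9147 none (64 controls were left out); 34754 symbols were updated through gene identifiers to GRCm38.p6 names. Where a gene had several probe sets, the one brightest on average was read.

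With limma 3.58.1 (R 4.3.3), each group got 1 coefficient, with eBayes and a variance trend, on 7 arrays, leaving 3 residual degrees of freedom (4 with 8 arrays); the single untreated control array is assumed to vary like the other groups. A gene was called at an adjusted p under 0.05 with no minimum fold. On simulated data, for the hormone in knockout cells, the fit recovered 32% of changes of 0.5 log2 units and 90% of changes of 1. A gene that was not called may thus still have changed. SE is the limma standard error. Members named in full are those called in any of 5 contrasts, plus Itga4 and Itgb1; of each companion list, genes were taken from the 4 with the smallest p in a contrast. Others were chosen after their values were seen. Members, lists and the array to leave out were chosen with earlier results of these data known. Alternatives covered arrays, variance trend, probe sets, low genes, scaling and replicates. Promoter sequences are from RefSeq.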

Additional observations from a re-analysis of the deposited data

How the results depend on the processing

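The counts of members called (14, 16, 5, 5 and 0 of 32, for the hormone in knockout cells, the hormone in control cells, the genotypes with and without hormone, and the interaction) moved with the settings as follows; the interaction stayed at 0 in each. With all 8 arrays the first 4 were 0, 1, 0 and 0, and the turned signs in control cells were 0.45 for Itgam, 0.14 for Itgal and 0.0633 for Cd44, with and without array weights. Array weights on 8 arrays gave 14, 0, 4 and 0. Without the variance trend they were 9, 8, 1 and 1. The mean of the probe sets of a gene gave 16, 12, 2 and 2, and centring each array on its median gave 10, 11, 3 and 3; that centring moved the median difference of all genes by -0.12 log2 units for the genotypes without hormone and turned no called sign. Fitting only the groups compared gave 14, 17, 6 and 3. Leaving out 1 array at a time, the counts ran from 11 to 17, 11 to 18, 2 to 6, 3 to 6 and 0 to 0. Dropping genes with low means left 14, 15, 4 and 4. With the replicate block, which fits the replicate number of the labels, the counts were 14, 14, 4 and 3. Deviations of same-numbered arrays correlated at -0.24 to 0.04 over genes, between groups other than untreated control. These values showed no clear positive link between same-numbered arrays. With 2 arrays per group they cannot decide whether same-numbered pools shared an experiment or a day. Signs of differences that passed in neither fit were not compared. Control contrasts without control untreated replicate 1 could not be fitted, and F11r, Itga8 and Itga9 were not tested once low genes were dropped.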

Other observations

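Adhesion receptors outside the integrin list, 25 of 26 measured, were also called in both directions. With hormone 4 rose and 3 fell in each genotype, beside 13.7% of all genes called in knockout and 10.8% in control cells; with all 8 arrays limma called 0 of the 25. Lyve1, a hyaluronan receptor of lymphatic endothelium and some macrophages, changed most. It read 4.75 in untreated control cells (6.35 on the array left out), 8.58 and 8.57 with hormone, 4.78 and 4.69 in untreated knockout cells and 8.19 and 8.32 with hormone. It rose by 3.52 log2 units in knockout (SE 0.11, limma adjusted p = 8.35e-08) and by 3.83 in control cells (SE 0.13, adjusted p = 3.11e-07; 3.03 and adjusted p = 0.17 with all 8 arrays). Selp, P-selectin, the partner of the PSGL-1 protein that Selplg encodes, read 8.15 in untreated control cells and 9.57 and 9.67 with hormone, and 8.20 and 8.16 in untreated knockout cells and 9.47 and 9.61 with hormone. It rose by 1.36 log2 units in knockout (SE 0.07, limma adjusted p = 2.2e-06) and by 1.47 in control cells (SE 0.09, adjusted p = 7.41e-06; 1.66 with all 8 arrays), while Selplg fell in both. The tetraspanin gene Cd9, whose protein associates with integrins, fell by 0.22 in knockout cells (SE 0.03, adjusted p = 0.00091).

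Between genotypes 3 of these receptors were higher in knockout cells with hormone and 1 without, and 0 were lower, beside 1.63% and 1.99% of all genes called. Cdh2, N-cadherin, read 6.74 in untreated control cells, 6.61 and 6.88 in treated control cells, 8.20 and 8.50 in untreated knockout cells and 8.76 and 8.48 in treated knockout cells. Its difference was 1.87 with hormone (SE 0.14, adjusted p = 0.00014) and 1.61 without (SE 0.17, adjusted p = 0.00151; -0.68 with all 8 arrays), in the 7-array fit opposite in sign to that of Cdh1, E-cadherin. Jam2, a relative of F11r, was higher by 1.08 with hormone (SE 0.12, adjusted p = 0.00164). On the control array left out Cdh2 read 11.32 and Jam2 8.56, above all other arrays, as Col4a1 and Parva also did. The part of other cells in these differences was not tested.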
